A study of Mus musculus with 15 samples.

Results

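Collagen chains are the gene products that assemble into collagens, the main structural proteins of connective tissue and basement membranes. The chains were taken as every gene of the count table whose mouse symbol has the form Col, a number, a, and a number. The rule found 44 genes among 41591 gene IDs, and 40 of them had enough reads to be tested. The study sequenced RNA from the whole epididymis of mice with different genotypes at Plag1, a gene for a zinc finger transcription factor. The 15 libraries came from 5 wild-type mice (WT), 5 mice labelled Plag1 -/+ (HET) and 5 mice labelled Plag1 -/- (KO), with 1 library per numbered animal. All animals were 7 weeks old, and the strain label of all of them reads Brown Swiss. Tissue was teased apart and rinsed to remove sperm before RNA extraction, and mRNA libraries were made with a stranded kit. Which part of Plag1 is disrupted was not used here, and the labels name no cell type to which the allele is restricted.

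The chains of a collagen wind around each other into a helix, either as copies of 1 chain or as a mixture of chains, so the balance between partner chains bears on what can be assembled. Fibrillar collagens form the fibrils of interstitial tissue, type IV collagens form the sheet of the basement membrane under epithelia and around vessels and muscle cells, and type VI collagens form beaded filaments beside them. In the epididymis the coiled duct lies on a basement membrane, wrapped by smooth muscle and embedded in interstitial tissue with fibroblasts, vessels and immune cells. Because whole tissue was sequenced, fewer cells of a type and less RNA per cell cannot be told apart.

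Libraries held 20.3 to 42 M counts. Plag1 itself was at 11.9 to 14.0 CPM in WT (each count taken over the TMM-scaled total of its library), at 8.11 to 11.8 in HET and at 6.99 to 9.37 in KO, so the KO libraries lay below all WT libraries. Its change in KO against WT was -0.61 ± 0.10 on the log2 scale (SE of the fit, 5 libraries per genotype, edgeR quasi-likelihood test with Benjamini-Hochberg adjusted p = 0.00493), and the table does not show which part of the gene the remaining reads come from. The tissue label was checked with markers of epithelium (Epcam, Cdh1, Krt8, Krt18, Krt19, Cldn3), whose summed level was 1383 to 1998 CPM in the 15 libraries, and of smooth muscle, at 1894 to 3220 CPM. These genes mark such cells in many organs and are not particular to the epididymis. On the first principal component of all genes tested, 4 KO libraries lay between 26.8 and 48.5 while the score of KO-738, -17.8, fell inside the span of the WT libraries (-19.9 to -11). KO-738 and HET-693 also held the most counts of Rn7sk, a small nuclear RNA, with 59.2 and 55.8 CPM of the raw totals against 1.43 to 21.7 in the other 13 libraries. Animal numbers below 700 belong to KO-694, KO-695, KO-696, HET-692 and HET-693, and to no WT animal, and the labels do not say what the numbers stand for.

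In KO against WT, 24 of the 40 tested chains rose, 1 fell (Col24a1) and 15 did not pass the test (edgeR quasi-likelihood test, adjusted p below 0.05 over 19388 genes). Over all genes tested, 4.4% rose and 1.6% fell. The chains that rose were 7 of 9 tested fibrillar chains, 7 of 9 basement membrane chains, 5 of 6 type VI chains, 4 of 8 tested fibril-associated chains and 1 of 4 transmembrane chains, while 0 of 2 tested short-chain collagens and 0 of 2 unclassed chains did. Their changes ran from 0.34 to 2.13 on the log2 scale, with edgeR adjusted p from 0.00336 to 0.0471. The median change of the 40 tested chains was 0.55, against -0.01 for all genes tested, and 35 of the 40 had a positive change. Together the 44 chains took 0.205% ± 0.0226 of the counts in WT, 0.206% ± 0.0243 in HET and 0.323% ± 0.0721 in KO (mean ± SD, n = 5). The share in single libraries was 0.172% to 0.234% in WT, 0.182% to 0.247% in HET and 0.22% to 0.417% in KO, with KO-738 the lowest KO library.

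In the summed share of the 44 chains, 4 of the 5 KO libraries lay above WT, at 0.311% to 0.417% against at most 0.234%. KO-738 was at 0.22%. For each of the 24 chains that rose, KO-694, KO-695, KO-696 and KO-739 lay above the highest WT library. These chains were called on the same libraries, so that order follows in part from the call, and its share over all genes was not counted. KO-738 lay above the highest WT library for 11 of the 24 chains and within the WT range for 12, and for Col22a1 it lay below WT. In 11 chains, all from the 24, the 5 KO libraries lay above the 5 WT libraries: Col4a1, Col4a3, Col4a4, Col4a5, Col4a6, Col15a1, Col5a3, Col6a3, Col6a6, Col12a1 and Col23a1. Of all genes tested, 2.84% had this order. HET-692 lay above the highest WT library in 19 of the 24 chains, against 1, 2, 5 and 1 chains for HET-693, HET-715, HET-718 and HET-735. The share of all genes with HET-692 above WT was not counted. On the first principal component of all genes tested, HET-692 scored 5.9 and the other HET libraries -17.8 to -10.9. The median coefficient of variation of the tested chains was 15.4% in WT, 13.6% in HET and 24.2% in KO.

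**Figure D1:**
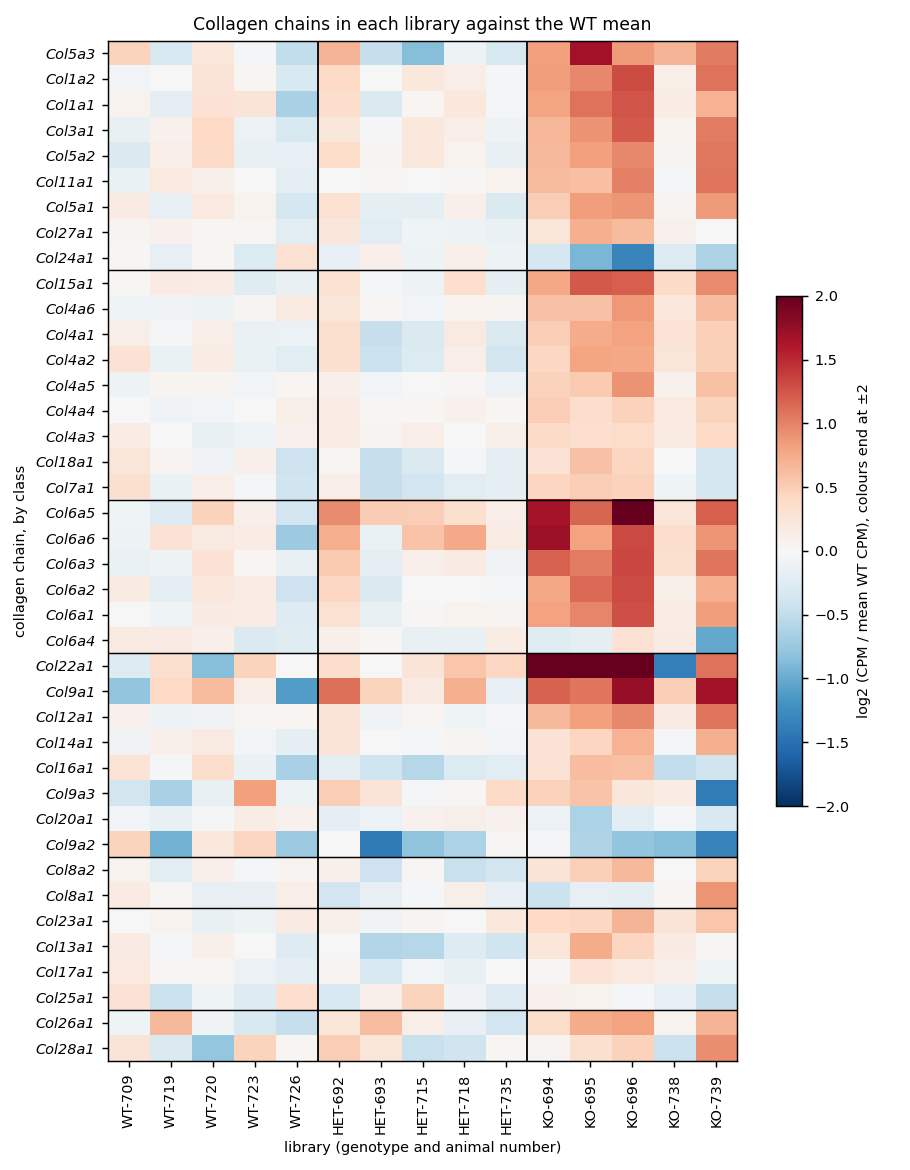
Each cell is the log2 ratio of a chain's CPM in 1 library to the mean WT CPM, with the 15 libraries in columns and the chains in lines by class, and colours end at ±2. Most chains of the fibrillar, basement membrane and type VI classes are above the WT mean in KO-694, KO-695, KO-696 and KO-739, while KO-738 is closer to the WT mean than these 4 in most of those chains and HET-692 is the highest HET column.

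The count of chains that rose changed with the libraries and terms in the fit. No WT animal is numbered below 700, so number range cannot be fully told apart from genotype. With the number range (below 700, 700 and above) as a term in the fit, 6 chains rose in KO against WT, against 0.81% of all genes: Col12a1, Col15a1, Col23a1, Col4a4, Col4a6 and Col6a3. In that fit the median change of the chains was 0.42 with 32 of 40 above 0, against 0.55 and 35 of 40 without the term. Among animals numbered 700 and above, the KO libraries are 2, KO-738 and KO-739. In the fit of these animals edgeR called 0 chains and 0% of all genes, and the median change of the chains was 0.41. With only WT and KO in the fit, 12 chains rose, against 1.3% of all genes, and the median change stayed at 0.55 with 35 of 40 above 0. Without KO-696, the deepest library, 11 chains rose, against 1.33% of all genes. Leaving out WT-709, WT-719, WT-723, WT-726 or KO-695 left 13, 15, 14, 13 and 14 chains that rose, against 339 to 466 genes in all and 853 genes with every library. Without KO-738, 26 chains rose, among them the 24, against 1905 genes in all. In each of the 15 fits that left out 1 library, 11 of the 24 chains stayed called: Col1a2, Col4a3, Col4a4, Col4a5, Col4a6, Col15a1, Col6a1, Col6a3, Col6a5, Col12a1 and Col23a1. The other 13 lost the call in 2 to 13 of the fits, most often Col14a1 (13) and Col4a2 (12). How many of the 853 genes that rose stayed called in all 15 fits was not counted.

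Levels of different chains can be compared only per length, here as CPM per kilobase (kb) of the longest protein-coding transcript. On that scale Col3a1 led in WT with 54.4 ± 10.7 (SD, n = 5), followed by Col1a2 with 42.5 ± 5.80, Col6a4 with 34.7 ± 5.32, Col6a1 with 31.9 ± 3.83, Col18a1 with 24.3 ± 3.92, Col1a1 with 23.3 ± 5.62, Col6a2 with 17.9 ± 3.22, Col4a1 with 15.9 ± 1.44 and Col4a2 with 12.1 ± 1.88. Among these 9 each mean ± SD overlapped the next in the order, except that of Col4a1, which lay above that of Col4a2. Below Col4a2 the level dropped to 6.75 ± 0.34 for Col4a5, and 17 chains from Col4a5 to Col8a2 in rank lay between that and 1.95. In KO the order was led by Col3a1 at 96.6 ± 26.6, Col1a2 at 79.9 ± 21.5 and Col6a1 at 57.8 ± 15.2, and Col6a4 stood at 31.8 ± 9.96. The lowest per kb were Col11a2, Col2a1, Col19a1 and Col10a1, the 4 chains that did not pass the filter on low counts, with at most 0.755 CPM in any library. Col2a1 and Col11a2 are cartilage chains and Col10a1 is the chain of hypertrophic cartilage.

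**Figure D2:**
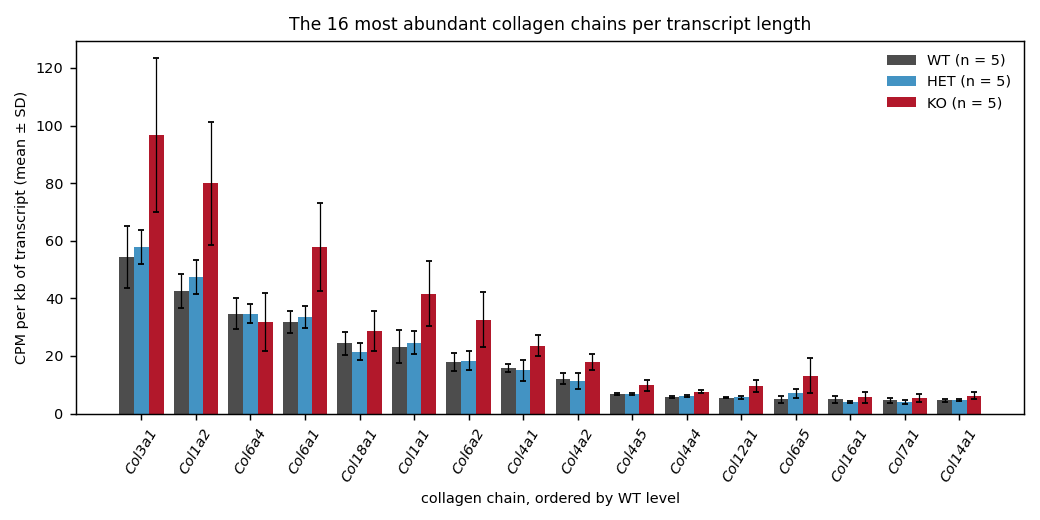
Bars are mean CPM per kb of transcript (± SD, 5 libraries per genotype) for the 16 most abundant chains in WT order. KO bars of Col3a1, Col1a2, Col6a1, Col1a1 and Col6a2 stand above WT and HET, and those of Col6a4 do not.

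The promoter windows were searched because Plag1 codes for a DNA-binding factor. RefSeq windows of build GRCm38.p6, from 250 bases before to 50 bases after a start, were held for 35 of the 44 chains, in 38 windows. Searched on both strands were the TATA box letters TATAAA, the CAAT box letters CCAAT, the GC box core GGGCGG and a core described for PLAG1, which is GGGGC, then 6 to 8 bases of any kind, then GGG. The PLAG1 core was in 34.2% of the chains' windows and in 15.9% of all 32851 windows, and GGGCGG in 60.5% and 35.7%. TATAAA was in 13.2% and 13.6%, and CCAAT in 34.2% and 37.4%. The chains' windows had a median GC content of 59.8%, against 52.7% for all windows, and 10 of the 14 PLAG1 core matches overlapped a GGGCGG. Of chains with a window, the core was found in 4 of 18 that rose and in 7 of 13 that passed no test in KO against WT. The matches in the 4 chains that rose and in the chain that fell are shown with 5 bases on each side and the match in capitals, as the letters run on the plus strand.
Col15a1, chr4:47207925-47207950, bases -82 to -67 from the start: actctGGGGCATGCAAGTGGGatctt
Col4a5, chrX:141475383-141475406, bases -31 to -18: gggagGGGGCGGTGCAGGGaagag
Col5a1, chr2:27886346-27886369, bases -74 to -61: cgttgGGGGCGGTGGGGGGtgggg
Col5a3, chr9:20815119-20815142, bases -70 to -57, gene on the minus strand: agaggGGGGCGGGGAAGGGaccca
Col24a1, chr3:145292399-145292422, bases -68 to -55: agctgGGGGCAGCTCTGGGgtgga
The stretches of Col5a1, Col5a3 and Col24a1 lie upstream of their genes in the RefSeq gene table. For Col5a1 and Col5a3 the positions count from a later start, inside the RefSeq gene. The Col5a1 stretch lies within another GENCODE vM21 gene, 2810430I11Rik, and in no exon. That of Col15a1 lies inside the RefSeq gene, upstream of a later start. It also lies within another GENCODE vM21 gene, Gm12426, and in no GENCODE vM21 exon. That of Col4a5 lies inside the RefSeq gene, upstream of a later start, and reaches into exon 1 of the GENCODE gene. A match is a description of letters, and no binding was measured.

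Of the 11 fibrillar chains, 9 were tested, 7 rose and 1 fell in KO against WT, with a median change of 0.75. Their summed level was 740 ± 123 CPM in WT, 794 ± 90.8 in HET and 1327 ± 346 in KO (SD, n = 5). In the lists of values that follow, libraries of a genotype are ordered from low to high. Col1a2, which pairs with Col1a1 in type I collagen, was at 185, 219, 228, 234 and 272 CPM in WT, at 224, 229, 250.1, 264 and 301 in HET and at 250, 404, 441, 481 and 559.9 in KO. The lowest KO value is that of KO-738 and lies within the WT range, and the other 4 KO libraries lie above all WT and HET libraries. Its change was 0.91 ± 0.17 (edgeR adjusted p = 0.00834), and against HET it was 0.75 ± 0.17 (edgeR adjusted p = 0.0345). Col1a1 was at 88.5, 123, 145, 166 and 169 CPM in WT, at 114, 136, 142, 159 and 177 in HET and at 153, 223, 238, 293 and 329 in KO. KO-738 again lay among the WT libraries, and HET-692 was the highest HET library. The change of Col1a1 was 0.84 ± 0.20 (edgeR adjusted p = 0.0304), and against HET it was 0.76 ± 0.20 and missed the threshold (edgeR adjusted p = 0.0638). Col3a1, the type III chain that shares fibrils with type I, was at 243, 274, 278, 321 and 397 CPM in WT, at 281, 294, 330.4, 349 and 354 in HET and at 319.5, 478, 566, 615 and 711 in KO. WT-720 was the highest WT library and stood above KO-738, while the other KO libraries lay above WT and HET. Col3a1 rose by 0.83 ± 0.18 (edgeR adjusted p = 0.0179).

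Type V and XI collagens sit inside fibrils and limit their width. Their chains Col5a1, Col5a2, Col5a3 and Col11a1 rose, and Col11a2, another type XI chain, was not tested and averaged 0.203 CPM in WT and 0.161 in KO. Col5a3 was at 2.61, 2.96, 3.62, 4.25 and 4.99 CPM in WT, at 2.04, 2.68, 2.97, 3.42 and 5.91 in HET and at 5.92, 6.50, 6.65, 7.58 and 11.8 in KO. All KO libraries lay above all WT libraries, KO-695 stood far above the other KO libraries, and HET-692 came just below KO-738. Col5a3 rose by 1.06 ± 0.27 against WT (edgeR adjusted p = 0.0331) and by 1.17 ± 0.27 against HET (edgeR adjusted p = 0.0374). Col5a1 lay between 16.1 and 23.8 CPM in WT and between 21.3 and 38.2 in KO, and rose by 0.66 ± 0.16 (edgeR adjusted p = 0.0313). Col5a2 lay between 23.4 and 37.3 CPM in WT and between 29.6 and 59.6 in KO, and rose by 0.75 ± 0.17 (edgeR adjusted p = 0.0243). Col11a1 lay between 8.19 and 10.8 CPM in WT and between 9.27 and 19.7 in KO, and rose by 0.71 ± 0.15 (edgeR adjusted p = 0.0173). In these last 3 chains KO-738 lay within the WT range. Against HET, Col5a1 (0.70 ± 0.16) and Col11a1 (0.68 ± 0.15) passed and Col5a2 (0.62 ± 0.17) did not (edgeR adjusted p = 0.0400, 0.0345 and 0.0682). Col27a1 ran from 6.11 to 7.62 CPM in WT and from 7.25 to 11.7 in KO, with a change of 0.37 ± 0.13 that did not pass (edgeR adjusted p = 0.110).

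Col24a1, a fibrillar chain of low abundance, went the other way. It was at 1.53, 1.66, 1.88, 1.89 and 2.28 CPM in WT, at 1.65, 1.72, 1.73, 1.99 and 2.00 in HET and at 0.739, 0.979, 1.19, 1.47 and 1.54 in KO. The reads behind these values were 32 to 56 counts per library. KO-738 lay just above the lowest WT library, the other 4 KO libraries lay below all WT libraries, and all KO libraries lay below all HET libraries. Its change was -0.66 ± 0.19 against WT (edgeR adjusted p = 0.0481) and -0.63 ± 0.18 against HET, which did not pass (edgeR adjusted p = 0.0796). Leaving out any single WT or HET library ended the call against WT.

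Beside the fibrillar chains, 3 of 8 fibroblast markers rose in KO against WT (Dpt, Lum and Dcn) and 0 fell, with a median change of 0.61. Their summed level was 519 to 632 CPM in WT, 579 to 713 in HET and 602 to 1131 in KO, and KO-738 was again the lowest KO library. The part of fibroblast number in the changes was not tested.

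**Figure D3:**
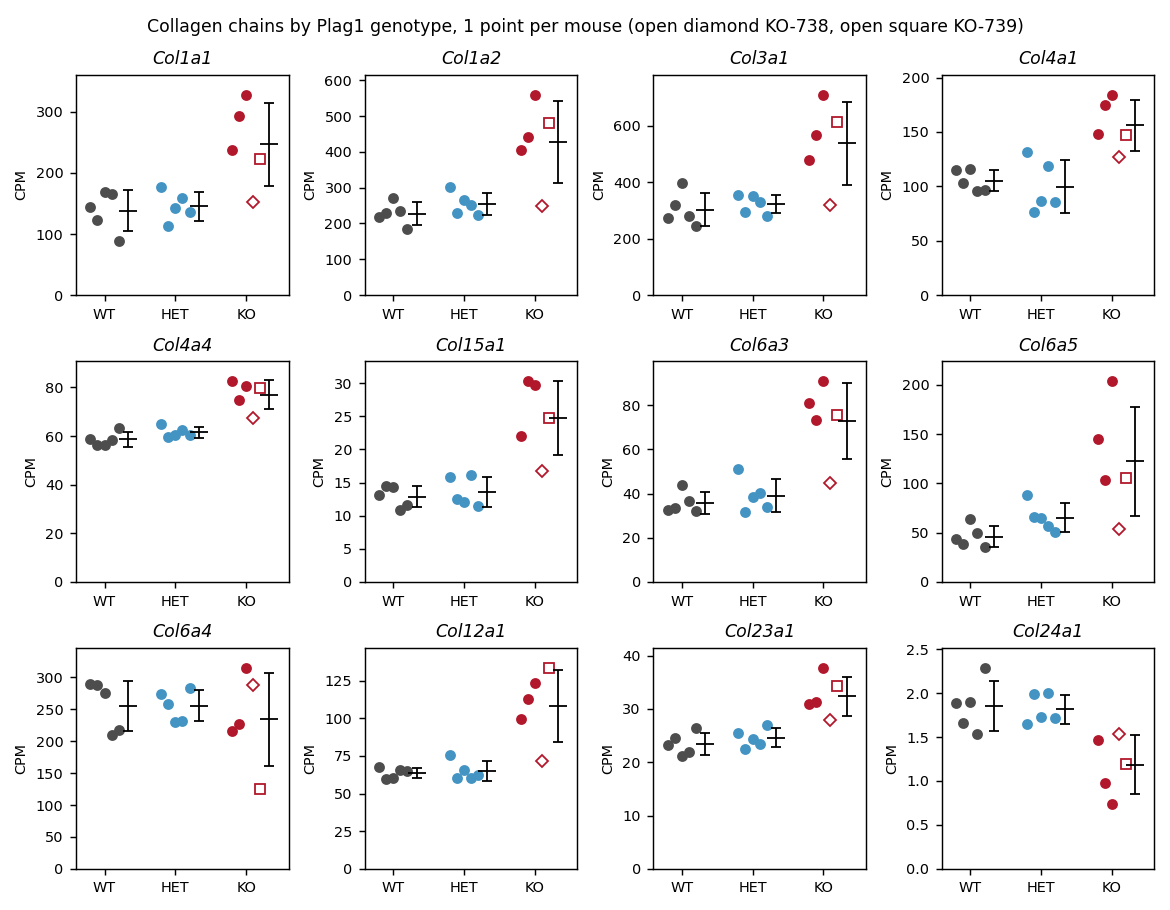
CPM of 12 chains, 1 point per mouse in each genotype, with the mean ± SD beside the points and KO-738 and KO-739 as open symbols. In Col4a4, Col15a1 and Col23a1 all KO points lie above WT and HET, in Col1a1, Col1a2 and Col3a1 KO-738 falls among the WT points, and Col6a4 and Col24a1 do not share the upward shift.

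Of the 9 basement membrane chains, 7 rose and 0 fell in KO against WT, with a median change of 0.54, and the same count of 7 rose against HET. Their summed level was 539 ± 42 CPM in WT, 514 ± 70.6 in HET and 729 ± 107 in KO. The 6 type IV chains come as head-to-head gene pairs, and all 6 rose. Col4a1, a chain of the type IV network found in nearly every basement membrane, was at 95.8, 96.5, 103, 115 and 116 CPM in WT, at 76.2, 85.9, 86.1, 119 and 132 in HET and at 127, 147, 148, 175 and 184 in KO. No KO library overlapped WT, but HET-692 at 132 CPM lay above KO-738. Col4a1 rose by 0.57 ± 0.14 (edgeR adjusted p = 0.0320) and its partner Col4a2 by 0.56 ± 0.15 (edgeR adjusted p = 0.0472). Col4a2 ran from 66.9 to 95.4 CPM in WT and from 92.8 to 136 in KO, with KO-738 within WT, and had the largest edgeR adjusted p among the chains that rose.

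The other 4 chains belong to more specialised type IV networks, among them that of the filtration barrier of the kidney. Col4a4 was at 56.1, 56.3, 58.5, 58.8 and 63.5 CPM in WT, at 59.5, 60.2, 60.6, 62.5 and 65.0 in HET and at 67.4, 75.0, 79.7, 80.4 and 82.4 in KO. All KO libraries lay above all WT and HET libraries, and KO-738 was the lowest of them. Its change of 0.39 ± 0.05 had the smallest edgeR adjusted p among the chains (0.00336), and against HET the change was 0.32 ± 0.05 (edgeR adjusted p = 0.0209). Its neighbour Col4a3 had a WT range of 32.3 to 39.5 CPM, a HET range of 35.6 to 39.6 and a KO range of 40.7 to 47.3, with a change of 0.34 ± 0.06 (edgeR adjusted p = 0.00657). Col4a5 was at 41.1, 42.5, 45.4, 45.7 and 46.0 CPM in WT, at 40.6, 42.7, 43.9, 44.9 and 47.3 in HET and at 47.0, 60.7, 63.5, 65.9 and 82.6 in KO. KO-738 stood just above the highest WT library and below HET-692. The change of Col4a5 was 0.54 ± 0.10 (edgeR adjusted p = 0.0105), and that of Col4a6 was 0.59 ± 0.10 (edgeR adjusted p = 0.00462), with Col4a6 at 22.9 to 27.7 CPM in WT and 28.3 to 44.8 in KO.

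Col15a1 codes for the chain of type XV collagen, a proteoglycan that links basement membranes to the fibrils beneath them. It was at 10.9, 11.7, 13.1, 14.3 and 14.4 CPM in WT, at 11.4, 12.02, 12.6, 15.9 and 16.2 in HET and at 16.8, 22.1, 24.8, 29.7 and 30.3 in KO. All KO libraries lay above all WT and HET libraries, and HET-718 and HET-692 lay above the highest WT library. Col15a1 rose by 0.94 ± 0.15 against WT (edgeR adjusted p = 0.00455) and by 0.86 ± 0.15 against HET (edgeR adjusted p = 0.0219), the largest change of the class. Its closest relative Col18a1, the type XVIII chain from which endostatin is cut, ran from 102 to 160 CPM in WT and from 108 to 205 in KO, with a change of 0.23 ± 0.16 that did not pass (edgeR adjusted p = 0.408). Col7a1, the anchoring fibril chain, ran from 32.8 to 54.0 CPM in WT and from 33.9 to 60.4 in KO, with a change of 0.23 ± 0.17 (edgeR adjusted p = 0.457).

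Markers of endothelium, whose basement membranes are rich in type IV collagen, were set beside this class. Of 7 endothelial markers, 6 rose in KO against WT (Pecam1, Cdh5, Kdr, Tek, Vwf and Tie1), with a median change of 0.70 and a summed level of 91.2 to 117 CPM in WT, 99.3 to 138 in HET and 149 to 217 in KO. In KO-738 the endothelial sum, 149 CPM, lay above all WT libraries. Its sum of basement membrane chains, 597 CPM, lay within the WT range of 484 to 600. By chain, KO-738 lay above all WT libraries for Col4a1, Col4a3, Col4a4, Col4a5, Col4a6 and Col15a1. For Col4a2, Col7a1 and Col18a1 it lay within the WT range. By edgeR 0 of 7 smooth muscle markers, 0 of 6 duct epithelium markers and 0 of 5 basal cell markers passed in KO against WT. At an unadjusted p below 0.05 by edgeR were 0, 0 and 3 of them, and 4580 of all 19388 genes tested. The part of endothelium and of these other cell types in the collagen changes was not tested.

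Type VI collagen had 5 of 6 chains that rose, with a median change of 0.95. The summed level of the class was 553 ± 64.1 CPM in WT, 585 ± 60.5 in HET and 821 ± 199 in KO. Col6a3, the long chain that completes the classical type VI monomer, was at 32.2, 32.7, 33.5, 36.8 and 44.0 CPM in WT, at 31.7, 34.0, 38.2, 40.1 and 51.3 in HET and at 44.7, 73.2, 75.3, 80.8 and 90.7 in KO. KO-738 lay just above the highest WT library and below HET-692, and the other 4 KO libraries lay above all others. Col6a3 rose by 1.03 ± 0.17 against WT (edgeR adjusted p = 0.00493) and by 0.90 ± 0.17 against HET (edgeR adjusted p = 0.0226). Col6a1 lay between 109 and 147 CPM in WT and between 146 and 320 in KO, and rose by 0.86 ± 0.16 (edgeR adjusted p = 0.00834). Col6a2 lay between 62.4 and 96.3 CPM in WT and between 89.9 and 205 in KO, and rose by 0.87 ± 0.19 (edgeR adjusted p = 0.0230). In both, KO-738 lay within the WT range.

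The remaining type VI chains, Col6a4, Col6a5 and Col6a6, lie next to each other on chromosome 9 and are thought to take the place of Col6a3. They did not move alike. Col6a5 was at 35.5, 38.3, 43.4, 49.5 and 63.4 CPM in WT, at 50.4, 57.2, 65.1, 65.4 and 88.5 in HET and at 54.2, 103, 106, 145 and 203 in KO. KO-738 lay within WT, and all 5 HET libraries lay above the WT median while 3 of them exceeded the highest WT library. Col6a5 rose by 1.41 ± 0.29 against WT (edgeR adjusted p = 0.0159), and the change of 0.90 ± 0.28 against HET did not pass (edgeR adjusted p = 0.0975). Col6a6, at 20 to 146 counts per library, had a WT range of 0.815 to 1.66 CPM, a HET range of 1.23 to 2.29 and a KO range of 1.72 to 4.45, with a change of 1.09 ± 0.26 (edgeR adjusted p = 0.0263). Col6a4, the most abundant of the 3, was at 210.1, 217, 275, 288 and 290.1 CPM in WT, at 231, 231, 259, 274 and 284 in HET and at 125, 216, 227, 288 and 314 in KO. KO spanned the WT range, with KO-739 lowest and KO-696 highest of all 15 libraries, and the change of -0.13 ± 0.19 did not pass (edgeR adjusted p = 0.730).

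Among fibril-associated chains, which decorate fibrils and bridge them to other molecules, 4 of 8 tested rose and 0 fell, with a median change of 0.32. The summed level was 143 ± 7.69 CPM in WT, 140 ± 9.15 in HET and 200 ± 35.8 in KO. Col12a1 was at 59.6, 60.6, 65.3, 65.4 and 67.4 CPM in WT, at 60.2, 60.4, 62.5, 65.7 and 75.8 in HET and at 71.4, 99.9, 113, 123 and 133 in KO. WT libraries lay close together, HET-692 at 75.8 CPM was above KO-738 at 71.4, and the other KO libraries stood well above both. Col12a1 rose by 0.76 ± 0.13 against WT (edgeR adjusted p = 0.00493) and by 0.74 ± 0.13 against HET (edgeR adjusted p = 0.0209), the only chain of the class called against HET. Its relative Col14a1 lay between 25.8 and 33.5 CPM in WT and between 29.1 and 48.4 in KO, and rose by 0.45 ± 0.12 (edgeR adjusted p = 0.0403).

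Col22a1 and Col9a1 rose on few reads, and Col22a1 had the largest fitted change of all chains. Col22a1, a chain of tissue junctions such as that between muscle and tendon, was at 0.179, 0.269, 0.326, 0.401 and 0.438 CPM in WT, at 0.326, 0.388, 0.412, 0.430 and 0.473 in HET and at 0.125, 0.687, 1.55, 1.87 and 2.75 in KO. Those values rest on 4 to 119 counts per library, KO-738 was the lowest of the 15 libraries, and KO-694, KO-695 and KO-696 stood apart from the rest. The change was 2.13 ± 0.54 (edgeR adjusted p = 0.0335). Col9a1, a partner of cartilage fibrils, rested on 6 to 77 counts per library, lay between 0.245 and 0.822 CPM in WT and between 0.752 and 1.78 in KO, and rose by 1.3 ± 0.33 (edgeR adjusted p = 0.0320). Beside these, the summed cartilage markers were 4.11 to 4.97 CPM in WT, 13.7 to 17.3 in the KO libraries numbered below 700, 11.5 in HET-692 and 4.79 to 7.52 in the other 6 libraries. Of 4 tested cartilage markers Cnmd and Comp rose and 2 did not pass, Hapln1 (0.30 ± 0.19) and Acan (-0.53 ± 0.25). Cnmd averaged 1.01 CPM in WT and 6.93 in KO, which is most of the difference in the sum (4.47 and 11.6), while Acan averaged 1.21 in WT and 0.836 in KO. Matn1 had 0 counts in every library, and the part of cartilage in these changes was not tested. In KO-739 the skeletal muscle markers summed to 4128 CPM, against at most 86.2 elsewhere. Its Col22a1, at 0.687 CPM, lay above all WT and HET libraries and below KO-694, KO-695 and KO-696. The part of skeletal muscle in the Col22a1 level was not tested.

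The remaining fibril-associated chains did not pass in KO against WT. Col16a1 had a change of 0.19 ± 0.22, Col20a1 of -0.25 ± 0.10, Col9a2 of -0.70 ± 0.33 and Col9a3 of 0.11 ± 0.32 (edgeR adjusted p = 0.646, 0.143, 0.210 and 0.870). The last pair rested on 5 to 25 counts per library.

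Of the 4 transmembrane chains, Col23a1 rose in KO. It was at 21.2, 22.0, 23.2, 24.5 and 26.4 CPM in WT, at 22.4, 23.5, 24.4, 25.4 and 27.1 in HET and at 28.0, 30.9, 31.4, 34.3 and 37.6 in KO. All KO libraries, KO-738 included, lay above all WT and HET libraries. The change was 0.47 ± 0.08 against WT (edgeR adjusted p = 0.00569) and 0.40 ± 0.08 against HET (edgeR adjusted p = 0.0257). Col13a1 was at 4.24, 4.92, 5.01, 5.43 and 5.68 CPM in WT, at 3.36, 3.42, 3.83, 4.22 and 5.09 in HET and at 5.16, 5.67, 5.999, 6.81 and 8.44 in KO. All KO libraries lay above all HET libraries but not above all WT libraries. Its change was 0.69 ± 0.15 against HET (edgeR adjusted p = 0.0297) and 0.34 ± 0.14 against WT, which did not pass (edgeR adjusted p = 0.157). Col17a1, the hemidesmosome chain of basal epithelial cells, ran from 21.8 to 28.5 CPM in WT and from 23.4 to 30.1 in KO (0.11 ± 0.09, edgeR adjusted p = 0.492), and Col25a1 from 0.652 to 1.1 and from 0.627 to 0.929 (-0.10 ± 0.20, edgeR adjusted p = 0.818). For both, the KO range overlapped the WT range.

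The short-chain collagens form hexagonal networks, for example under corneal and vascular endothelium. Col8a2 had a WT range of 7.27 to 9.04 CPM, a HET range of 6.19 to 9.09 and a KO range of 8.43 to 13.2. Its change was 0.58 ± 0.13 against HET (edgeR adjusted p = 0.0351) and 0.38 ± 0.13 against WT, which did not pass (edgeR adjusted p = 0.0915). Col8a1 ran from 5.81 to 7.30 CPM in WT and from 4.84 to 12.1 in KO, where KO-739 alone exceeded WT (0.11 ± 0.20, edgeR adjusted p = 0.790). The unclassed chains Col26a1 (0.59 ± 0.24) and Col28a1 (0.34 ± 0.28) had at most 1.28 CPM in any library and did not pass (edgeR adjusted p = 0.151 and 0.499).

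**Figure D4:**
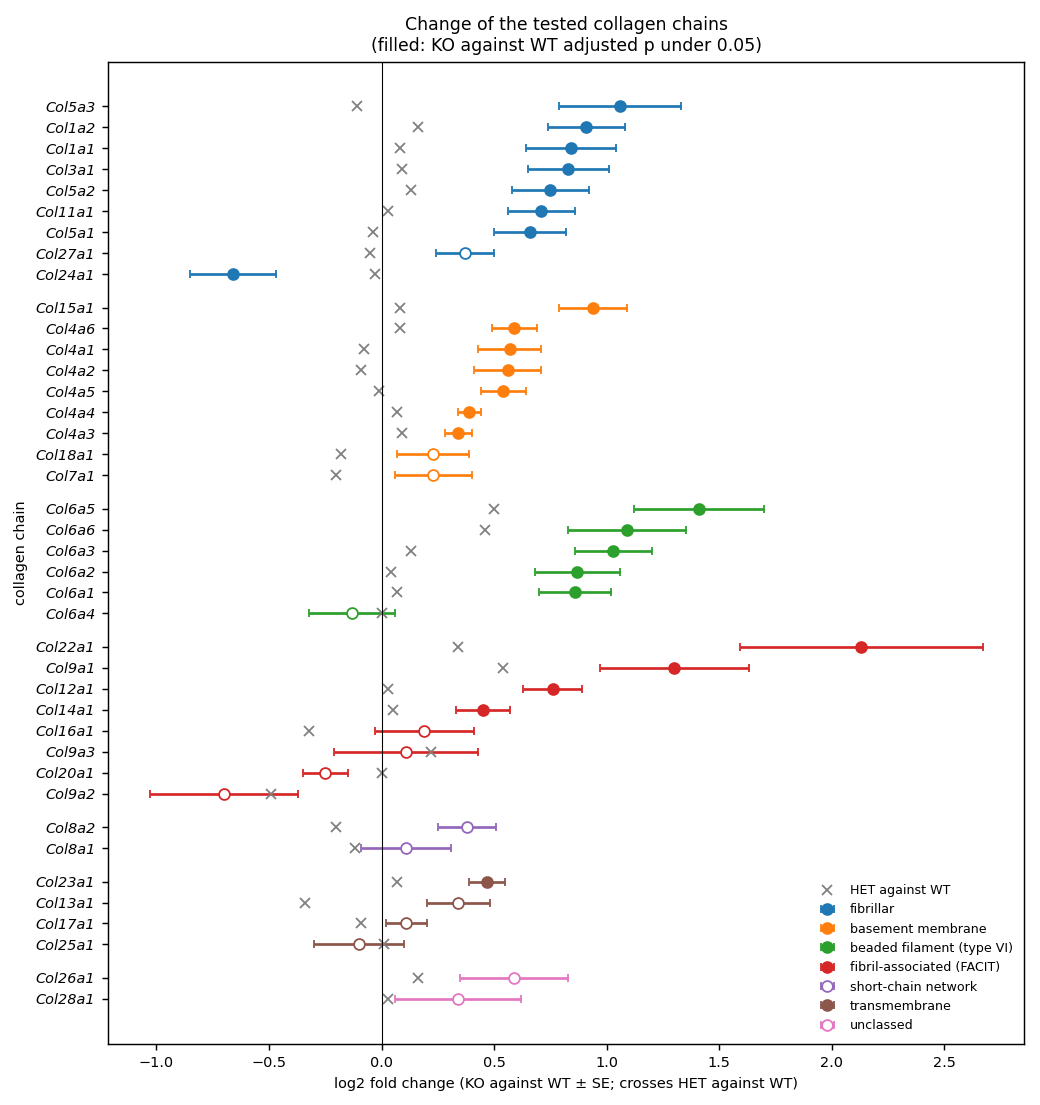
Log2 fold change ± SE of each tested chain, by class, for KO against WT and HET against WT, with filled symbols where KO against WT passed an adjusted p of 0.05. The KO values of 24 chains are filled to the right of 0 and that of Col24a1 to the left, while the HET values lie around 0.

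In KO against HET, 19 of 40 tested chains rose and 0 fell by edgeR. Over all genes tested, 1.61% rose and 0.351% fell. At an unadjusted p below 0.05 by edgeR were 33 of the 40 chains, and 4024 of all 19388 genes tested. DESeq2 called 25 higher and limma voom 27, against 889 and 1098 genes higher in all, where edgeR called 312. The comparisons with WT and with HET share the KO libraries. In both, 17 chains rose, 7 only against WT and 2, Col8a2 and Col13a1, only against HET, where the difference between the contrasts was not tested. The overlap of the 2 comparisons over all genes was not counted. By class, 5 fibrillar, 7 basement membrane, 3 type VI, 1 fibril-associated, 1 short-chain and 2 transmembrane chains rose against HET. Fitted with KO and HET alone, or without KO-696, edgeR called 0 chains, and 0 and 5 genes higher in all. Leaving out HET-693, HET-715 or HET-735 also gave 0 chains, against 6, 3 and 0 genes higher in all. Leaving out HET-718 gave 2 chains, against 29 genes. In all of these fits the median change of the chains was between 0.49 and 0.58. Leaving out KO-694, KO-695 or KO-739 gave 9, 7 and 9 chains, against 172, 145 and 145 genes higher in all, with a median change of 0.55 to 0.57.

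In HET against WT, edgeR called 0 chains in each direction and 0% of all genes. DESeq2 and limma voom also called 0 chains. Of the chains 1, Col13a1, was below an unadjusted p of 0.05 by edgeR, with a change of -0.34 ± 0.15. Of all 19388 genes tested, 854 were below it. The smallest edgeR adjusted p of the chains was 0.981. The median change was 0.03, with 24 of 40 tested chains positive. By class the medians were 0.03 for fibrillar, -0.01 for basement membrane, 0.10 for type VI and 0.04 for fibril-associated chains. Col6a5 and Col6a6 had the changes 0.50 ± 0.28 and 0.46 ± 0.26, which did not pass. A p that misses the threshold does not show that HET and WT are alike.

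Ratios of chains within a library do not depend on scaling. For 10 ratios KO and HET were each compared with WT by an exact two-sided permutation test over 252 regroupings, whose smallest possible p is 0.00794. A single ratio at that p has an adjusted p of 0.159 over the 20 tests, and at least 4 ratios would have to reach it for any to pass 0.05. The values are therefore given as a description, and that none passed says nothing about whether the ratios differed. The log2 ratio of counts of Col1a1 to Col1a2 was -0.75 ± 0.23 in WT, -0.81 ± 0.14 in HET and -0.79 ± 0.20 in KO (SD, n = 5). Col4a1 to Col4a2 was 0.43 ± 0.11 in WT and 0.44 ± 0.05 in both HET and KO, and Col6a1 to Col6a2 was 0.66 ± 0.13, 0.69 ± 0.09 and 0.65 ± 0.10. The pairs thus differed between genotypes by less than their spread. Col15a1 to Col18a1 was -3.39 ± 0.27 in WT, -3.15 ± 0.15 in HET and -2.69 ± 0.35 in KO, a difference of 0.70 between KO and WT (exact permutation p = 0.00794, the smallest possible, adjusted p = 0.159). The KO libraries (-3.03 to -2.12) all lay above the WT libraries (-3.74 to -3.12). Col14a1 to Col12a1 was -1.12 ± 0.22 in WT and -1.42 ± 0.09 in KO, a difference of -0.31 (exact permutation p = 0.0159, adjusted p = 0.159). Col6a3 to Col6a1 was -1.87 ± 0.12 in WT and -1.69 ± 0.13 in KO (exact permutation p = 0.0714, adjusted p = 0.476). Col4a1 to Col1a1, basement membrane against fibril, was -0.36 ± 0.34 in WT and -0.63 ± 0.22 in KO (exact permutation p = 0.182, adjusted p = 0.730).

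**Figure D5:**
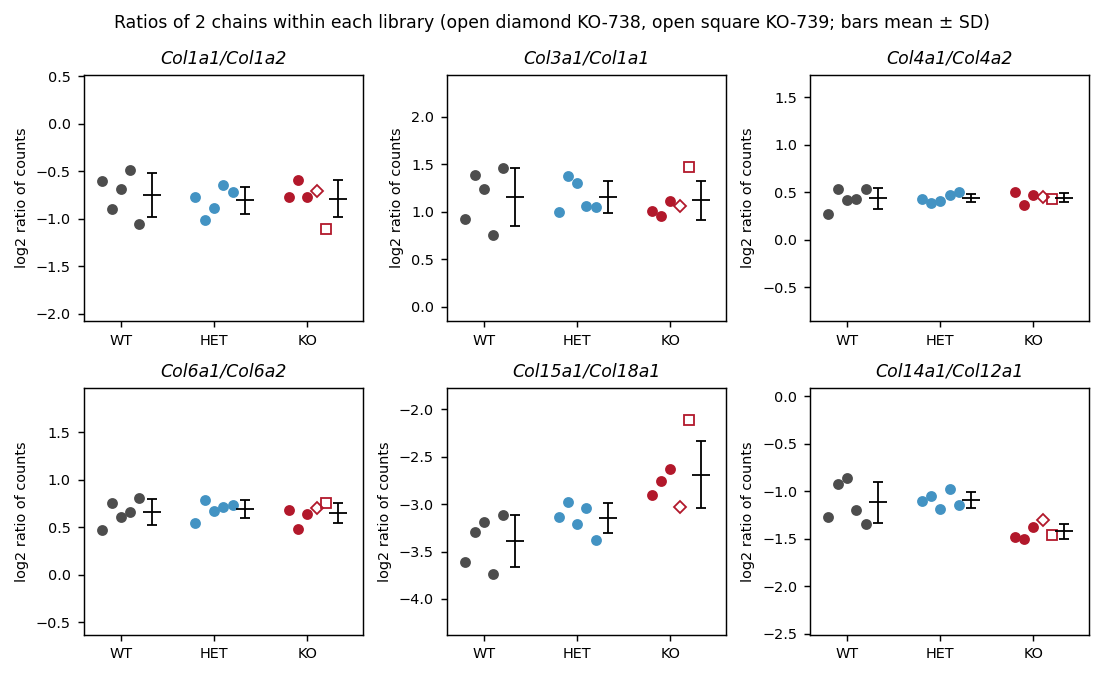
Log2 ratio of the counts of 2 chains in each library, by genotype, with mean ± SD and KO-738 and KO-739 as open symbols. The Col1a1/Col1a2, Col4a1/Col4a2 and Col6a1/Col6a2 points of the 3 genotypes overlap, and the KO points of Col15a1/Col18a1 lie above those of WT.

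Some partner genes also share position. Col4a3 and Col4a4 overlap by 114 bases on chromosome 1, and Col4a1 and Col4a2 by 85 bases on chromosome 8, in the RefSeq table of GRCm38.p6. Col4a5 and Col4a6 are 1274 bases apart on chromosome X. Whether the counting used strand is not given in the sources used here, so reads in these overlaps cannot be assigned to 1 gene. Col6a4, Col6a5 and Col6a6 lie in a row on chromosome 9 with gaps of 27854 and 27823 bases, and of these Col6a5 and Col6a6 rose in KO while Col6a4 did not pass.

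Genes that fold, process and bind collagen were counted in the same fit as the chains. Of 20 tested genes for folding and modification, 4 rose in KO against WT and 0 fell, while 16 missed the threshold, and the median change was 0.22. These were P3h3 (0.37 ± 0.10) and Crtap (0.31 ± 0.09), of the prolyl 3-hydroxylase group, and the endoplasmic reticulum isomerases Fkbp7 (0.31 ± 0.09) and Fkbp9 (0.27 ± 0.08), with edgeR adjusted p of 0.0348, 0.0407, 0.0433 and 0.0463. Serpinh1, the collagen chaperone HSP47, had a change of 0.42 ± 0.14 that did not pass (edgeR adjusted p = 0.0813). P4hb, a subunit of prolyl 4-hydroxylase with other roles in protein folding, was at 1148 ± 39.4 CPM in WT and 1186 ± 65.9 in KO. Against HET, P3h3 alone of this list rose.

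Of 16 genes for export, processing and cross-linking, 7 rose and 0 fell, while 9 missed the threshold, and the median change was 0.31. Adamts2, which removes the amino-terminal propeptide of fibrillar procollagens, was at 14.8 ± 2.08 CPM in WT and 31.9 ± 7.99 in KO (SD, n = 5), a change of 1.1 ± 0.16 (edgeR adjusted p = 0.00341). Its KO range of 19.1 to 38.5 CPM lay above the WT range of 11.7 to 17.2. Loxl2 (0.86 ± 0.16) and Lox (0.69 ± 0.13), which cross-link collagen, and Pcolce (0.54 ± 0.12), which enhances removal of the carboxy-terminal propeptide, rose as well (edgeR adjusted p = 0.00782, 0.01 and 0.0176). Bmp1, Tll1 and Loxl4 made up the 7. Against HET, 3 rose: Adamts2, Tll1 and Loxl2. The export genes Mia3 (-0.02 ± 0.05), Mia2 (-0.12 ± 0.09) and Sec23a (0.01 ± 0.07) did not pass.

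Of 10 tested collagen receptors, 2 rose and 0 fell, while 8 missed the threshold, and the median change was 0.32. Mrc1, an endocytic receptor of macrophages and some endothelium, rose by 1.04 ± 0.24 (edgeR adjusted p = 0.026), with WT libraries at 4.57 to 8.22 CPM and KO libraries at 8.27 to 20.9. Ddr2, a receptor tyrosine kinase for fibrillar collagen, rose by 0.32 ± 0.08 (edgeR adjusted p = 0.0281). Itga2 (0.46 ± 0.14) and Mrc2 (0.37 ± 0.12) did not pass (edgeR adjusted p = 0.0653 and 0.0853), and Gp6, the platelet receptor, was not tested, at 0 in all libraries but HET-692 (0.0294 CPM). Beside Mrc1, 3 of 6 macrophage markers rose (Csf1r, Adgre1 and Cx3cr1), with a summed level of 79.2 to 91.2 CPM in WT and 90.4 to 120 in KO, and the part of macrophage number was not tested.

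Of 16 non-collagen partners in the basement membrane, 6 rose and 0 fell, while 10 missed the threshold. The median change was 0.22, and 6 rose against HET. Pxdn, the peroxidasin that cross-links type IV collagen, was at 15.7 ± 1.16 CPM in WT and 24.7 ± 2.90 in KO, with a change of 0.65 ± 0.09 (edgeR adjusted p = 0.00336). Its KO libraries, at 20.1 to 27.6 CPM, lay above the WT libraries at 14.3 to 17.3. The laminin chains Lamb1 (0.51 ± 0.09) and Lama2 (0.59 ± 0.11) and the linker Nid1 (0.43 ± 0.09) rose too (edgeR adjusted p = 0.00641, 0.0104 and 0.0122). Lama4 and Lamc3 also rose, while Lama5 (0.03 ± 0.16), Hspg2 (0.21 ± 0.19) and Agrn (0.02 ± 0.11) did not pass.

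Other marker lists differed between libraries as well. In KO against WT, 1 of 6 pericyte markers, 2 of 5 tested mesothelial markers and 2 of 8 germ cell markers rose. Of the adipocyte (0 of 6), Schwann cell (0 of 6) and skeletal muscle (0 of 5 tested) markers 0 passed by edgeR. At an unadjusted p below 0.05 by edgeR were 5, 2 and 5 of them, and 4580 of all 19388 genes tested. The summed adipocyte markers were 8.61 to 39.2 CPM in WT, 5.5 to 44.8 in HET and 8.57 to 193 in KO, with KO-695 highest. Germ cell markers summed to 34.6 to 84.4 CPM in WT, 56.0 to 104 in HET and 38.4 to 193 in KO, with KO-738 the lowest and KO-696 the highest KO library. The part of these lists in the collagen changes was not tested.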

How the data were processed

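RNA-seq of whole epididymis from 15 mice, 5 per genotype and 1 library per numbered animal, was analysed from 1 table of raw counts per NCBI Gene ID, which the authors deposited. Per the submitters' processing notes, the tools were HISAT2 2.0.5, FastQC, and featureCounts from the Subread package (1.4.6p5), and the build was GRCm38.p6. The annotation release and the strand setting of the counting are not given in the sources used here, so overlapping genes are uncertain, as are genes with near-identical copies.

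Of 41591 IDs, 40290 were named from the RefSeq gene table of GRCm38.p6, 87 from GENCODE metadata and 1214 had no name. The latter stayed in the library sizes and in the tests. Libraries held 20.3 to 42 M counts, so counting error is small for all but the rarest chains. The smallest chi-square per degree of freedom between 2 libraries of 1 genotype was 5.37, and no library was counted as a repeat of another. The labels do not say more about the animals than a number, genotype, strain and age.

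Counts were fitted with edgeR 4.0.16 under R 4.3.3, by the robust quasi-likelihood test with TMM factors and filterByExpr on genotype. A single model held the 15 libraries and left 12 residual degrees of freedom. Two-sided p-values from the 19388 genes tested were adjusted together (Benjamini-Hochberg) and held against 0.05. The biological coefficient of variation was 16.3%. The test was tested on simulated data. Alternatives used DESeq2 1.42.0, limma 3.58.1 (voom with quality weights), other scaling factors, other filters, fewer libraries and the animal number range. Ratios of chains were compared by exact permutation, leaving out chains with under 10 counts in a library. Levels per kb used the longest protein-coding transcript of GENCODE vM21. Promoter windows are RefSeq's for GRCm38.p6. Protein sequences were not used here. Python 3.11.15, pandas 2.3.3 and matplotlib 3.10.9 made the tables and plots.

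Values are named for every chain past the threshold in any comparison, for the 2 most abundant chains of each class and for up to 4 genes of each pathway list with the smallest p in KO against WT. Other genes named were chosen after their values were seen. The members, the lists and the tests were chosen with earlier results of these data known. Of the list genes 1, Col21a1, had no match.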

Additional observations from a re-analysis of the deposited data

Results flagged for a closer look

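In 3 of 99 sets of 5 libraries of 1 genotype, 1 set for each of 33 named chains and genotype, a single library stood apart from the others by Dixon's test at 95% (a gap over 0.71 of the range), and chance alone does so in about 1 of 20 sets. Col26a1 was at 0.702 CPM in WT-719, against 0.326 to 0.429 in the other WT libraries. Those values rest on 14 counts in WT-719 and 8 to 12 in the others, so counting error is large there. Col5a3 was at 11.8 CPM in KO-695, against 5.92 to 7.58 in the other KO libraries. For Col8a1, KO-739 stood at 12.1 CPM and the remaining KO libraries at 4.84 to 6.73.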

How the results depend on the processing

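The count of chains that rose in KO against WT was 24. It was 12 with only WT and KO in the fit, 6 with the number range as a term and 0 among animals numbered 700 and above, and leaving out 1 library gave 11 to 26. Over all genes the count that rose was 853, then 246, 157 and 0 in those fits, and 258 to 1905 without 1 library. The 1 chain that fell, Col24a1, became 0 with upper-quartile factors, limma voom, no filter, only WT and KO, the number range as a term and animals numbered 700 and above, and 0 to 1 without 1 library. In KO against HET the 19 chains that rose became 12 with no filter and 0 with only KO and HET or animals numbered 700 and above, with 0 to 26 without 1 library. Over all genes the 312 that rose became 287 with no filter and 0 in the latter 2 fits, with 0 to 1546 without 1 library. The count of chains that fell, 0, became 1 with DESeq2, limma voom and without KO-738 and HET-693, and was 0 to 1 without 1 library. In HET against WT the counts were 0 in both directions in every alternative run. The cause of these shifts was not tested. No called change of a named chain turned its direction. The ratio tests, in which a single ratio cannot pass the adjustment, are left out here. No paired analysis was made, because the labels give no litter or other link between animals of different genotypes. Among the called chains depth limits Col22a1, Col9a1, Col24a1 and Col6a6, with as few as 4, 6, 32 and 20 counts in a library. Among the tested chains without a call it limits Col25a1, Col26a1, Col28a1, Col9a2 and Col9a3. These had as few as 13, 8, 11, 7 and 5 counts.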
